A study of Mus musculus with 13 samples.

Results

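The Myod1 locus was followed through differentiation of C2C12 cells, an established mouse myoblast line, by the acetyl mark on lysine 27 of histone H3 (H3K27ac), which is found at active enhancers and promoters. The region was chosen by position and not by any measured value, as chromosome 7 from 53530000 to 53660000 of the mouse build mm9. It holds 468 of the 1117291 peaks in the 12 deposited lists. Myod1 lies on the plus strand at about 53631800 to 53634500. Distances below are counted from that approximate start, so short distances carry that uncertainty.

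Myod1 encodes MyoD, a basic helix-loop-helix transcription factor that binds E-box sequences, recruits histone acetyltransferases and drives the muscle programme. Its own expression is known to depend on a core enhancer about 20 kb upstream and on a distal regulatory region about 5 kb upstream, besides the promoter. The core enhancer is known for starting Myod1 expression in the embryo, and the distal regulatory region for expression in differentiated muscle. MyoD is also known to act on its own gene, so the lists of a line without MyoD bear on a locus that is at once its source and its target.

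Wild-type C2C12 cells were sampled as growing myoblasts (-24 h), at 0 h, and after 6, 12, 24, 48 and 72 h of culture in differentiation medium with low serum. At 48 h there were also lists from 5 CRISPR/Cas9-edited C2C12 lines kept in the same medium: Myod1_KO, in which MyoD expression was knocked out, and the lines H1_KO, H3_KO, H23_KO and H34_KO, which lack regions that the submitters call hotspots. H23_KO and H34_KO were made by deleting H3 in a line already without H2 or H4, so 3 lines share the H3 deletion. Each condition had 1 library, the CRISPR control of 48 h was not analysed here, and the wild-type library at 48 h was the reference for the edited lines. With 1 library a condition no test between conditions was run, and each difference below has no replicate check. The number of clones behind each line was not given in the sources used here.

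The deposited lists held 55585 (Myod1 knockout) to 137960 (H1 line) peaks, which covered 18.3 Mb (Myod1 knockout) to 81.5 Mb (H23 line) of the genome. Read depth was unknown, and the lists differ in their lowest values, so the region's covered bases are also given as a share of each list, and shares of missing peaks beside the same share over the whole list. The covered bases of single segments have no such reference beside them. Where it changes an order or moves a value much, the value with lists of equal length is given, in which the 55585 strongest peaks of each list were kept. A peak that is missing from a list means that none was called there, not that acetylation was absent. In such bulk samples, fewer cells carrying the mark and less of it in each cell cannot be told apart. Scores, folds and −log10 p-values are the authors' own for each peak and were used to rank peaks within 1 list.

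In all 12 libraries the far upstream part of the locus carried peaks, whereas the gene and its promoter carried peaks in 11 and lacked any in the Myod1 knockout. The region was cut into 6 segments to follow this. The core enhancer window, 25 to 17 kb upstream, had a peak in 12 of 12 libraries. So did the segment farther upstream. The stretch between the enhancer windows had one in 10 libraries, and the distal regulatory window, 7 to 3 kb upstream, in 6. The promoter and gene, from 3 kb upstream to the gene end, had one in 11, and the sequence downstream of the gene in 9.

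**Figure D1:**
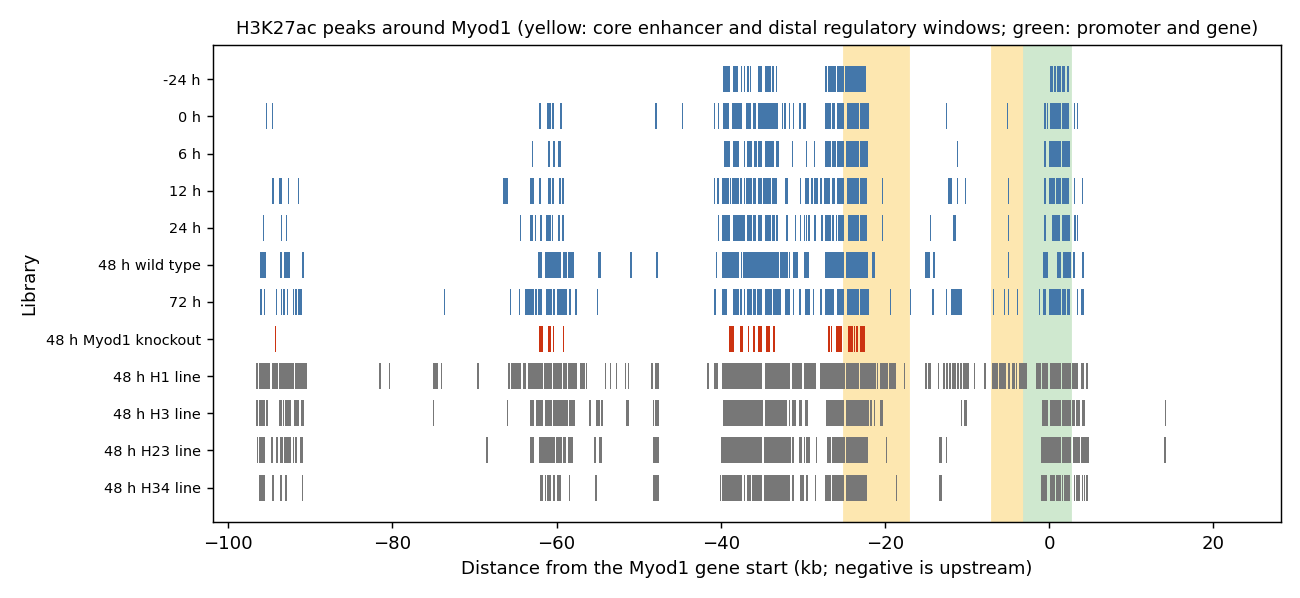
H3K27ac peaks of the 12 libraries (rows) by distance from the Myod1 gene start in kb, with each peak drawn to scale as a bar; blue is the wild-type time course, red the Myod1 knockout and grey the hotspot lines, and shading marks the enhancer windows (yellow) and the promoter and gene (green). The knockout row has 20 peaks, all at least 22.5 kb upstream of the gene start, whereas each other row also has peaks at the gene.

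The number of bases covered by peaks over the whole locus was lowest in the Myod1 knockout and highest in the H1 line. In the wild-type series the number of peaks was 21 for -24 h, 35 for 0 h, 25 for 6 h, 46 for 12 h, 44 for 24 h, 32 for 48 h and 59 for 72 h. The covered bases were 9928, 16379, 13440, 19415, 16421, 24479 and 24685 at the same times. The covered bases at -24 h were thus the lowest of the 7 and those at 48 and 72 h the highest, with 6 and 24 h each below the time before it. With lists of equal length 24 h (14148 bp) was just above 12 h (14027 bp), so the dip at 24 h rested on the length of the lists. Peak number is a poorer guide, because at 48 h fewer and wider peaks (a median of 469.5 bp in the region and 420 bp in the list) covered nearly as much as the 59 narrower ones at 72 h (272 bp, and 249 bp in the list).

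As a share of all bases covered by a list, the region took 0.037% for -24 h, 0.0469% for 0 h, 0.0384% for 6 h, 0.047% for 12 h, 0.0669% for 24 h, 0.0539% for the 48 h wild type and 0.0992% for 72 h. The share at 72 h was the highest of the 12 libraries. The Myod1 knockout had 20 peaks over 6351 bp, a share of 0.0347%, which lay close to that at -24 h and above that of the H34 line, at 0.0306%. The low coverage in the knockout was therefore accompanied by a short list, and its share of the list was not the lowest. The H1 line had 67 peaks over 48171 bp (0.0683%), the H3 line 42 over 29783 bp (0.051%), the H23 line 37 over 29462 bp (0.0362%) and the H34 line 40 over 22329 bp. H1 thus had more covered bases here than any other library, while H34 stood near the 48 h wild type in the full lists. In lists of equal length H1 was still the highest, at 37096 bp. H3 (23576 bp) and H23 (23334 bp) were then level with the 48 h wild type (23105 bp), and H34 (16698 bp) was below it.

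**Figure D2:**
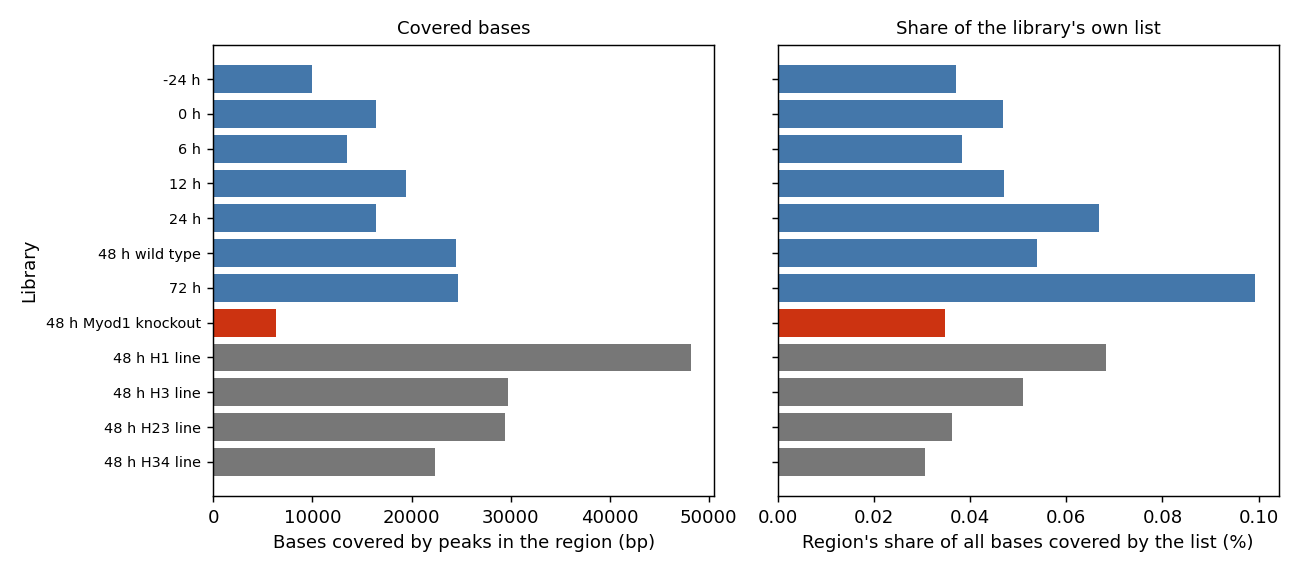
Bases of the region covered by peaks (left, bp) and the region's share of all bases covered by the same list (right, %) in each of the 12 libraries, 1 bar for each library; blue is the wild-type time course, red the Myod1 knockout and grey the hotspot lines. Covered bases run from 6351 in the knockout to 48171 in the H1 line, but the knockout's share of its list, at 0.0347%, is above that of the H34 line.

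The locus was among the densest of its size in each list. The genome was tiled into 20281 windows of the same length, and the region had more covered bases than 96.8% (H34) to 99.7% (72 h and H1) of them. The Myod1 knockout stood at 97.1%, with 589 windows holding more. At 72 h 51 windows held more, and in the 48 h wild type 105 did. The median window of the knockout list had 0 covered bases and the mean window 902 bp, against 6351 bp in the region. The locus thus stayed well above a usual window in the knockout list, although the gene itself had no peak there. Because the median window was empty, a high rank there takes few peaks.

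The promoter and gene segment showed the plainest contrast. It is 5701 bp long. Peaks covered 1638 bp of it at -24 h, 2620 bp at 0 h, 2588 bp at 6 h, 2438 bp at 12 h, 2232 bp at 24 h, 1949 bp in the 48 h wild type and 2820 bp at 72 h. The hotspot lines had 4111 bp (H1), 3247 bp (H3), 3410 bp (H23) and 2881 bp (H34), and the Myod1 knockout had 0 bp. The knockout thus lay below all 11 others. The 4 hotspot lines lay above all 7 wild-type libraries, but with lists of equal length H34 had 2096 bp, below 0, 6, 12, 24 and 72 h, and H1, H3 and H23 stayed above all 7.

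Within the gene, 2 merged regions had a peak in every library but the Myod1 knockout. They lay at 53631807 to 53633295 and at 53633363 to 53634479, and together they span nearly the whole gene. Merged regions join overlapping peaks of all 12 libraries. Of 62 such regions at the locus these 2 had that pattern, against 1.11% of the 211369 merged regions of the genome. The parts covered in all 11 other libraries were 53632775 to 53633187, 53633531 to 53633539, 53633620 to 53633730 and 53634013 to 53634234, or 755 bp in 4 stretches.

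The promoter side, the 3000 bp before the gene start, behaved differently from the gene body. At -24 h it had no peak, and the first peak of the gene began 172 bp after the start. At 0 h a peak lay 592 to 333 bp upstream and a second one 252 to 138 bp upstream. A single peak followed at 651 to 413 bp upstream at 6 h, 595 to 364 bp at 12 h, 599 to 386 bp at 24 h and 790 to 164 bp in the 48 h wild type. At 72 h there were peaks at 675 to 373 bp and 1217 to 1064 bp upstream. A promoter-side peak was thus called at each wild-type time from 0 h on and within the same 1 kb, and at -24 h the gene body had peaks without it. This rests partly on weaker peaks, at the 5.73rd percentile of the list at 6 h and the 45.5th at 12 h. In lists of equal length the promoter and gene held 2349 bp at 6 h and 2206 bp at 12 h, as did the gene body alone in the full lists. Neither time then had a promoter-side peak.

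The hotspot lines kept this promoter-side peak. It lay 916 to 91 bp upstream in the H1 line, 859 to 84 bp in H3, 957 to 60 bp in H23 and 965 to 239 bp in H34. These peaks of 727 to 898 bp were wider than the 627 bp of the wild-type peak at 48 h. The Myod1 knockout had none.

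**Figure D3:**
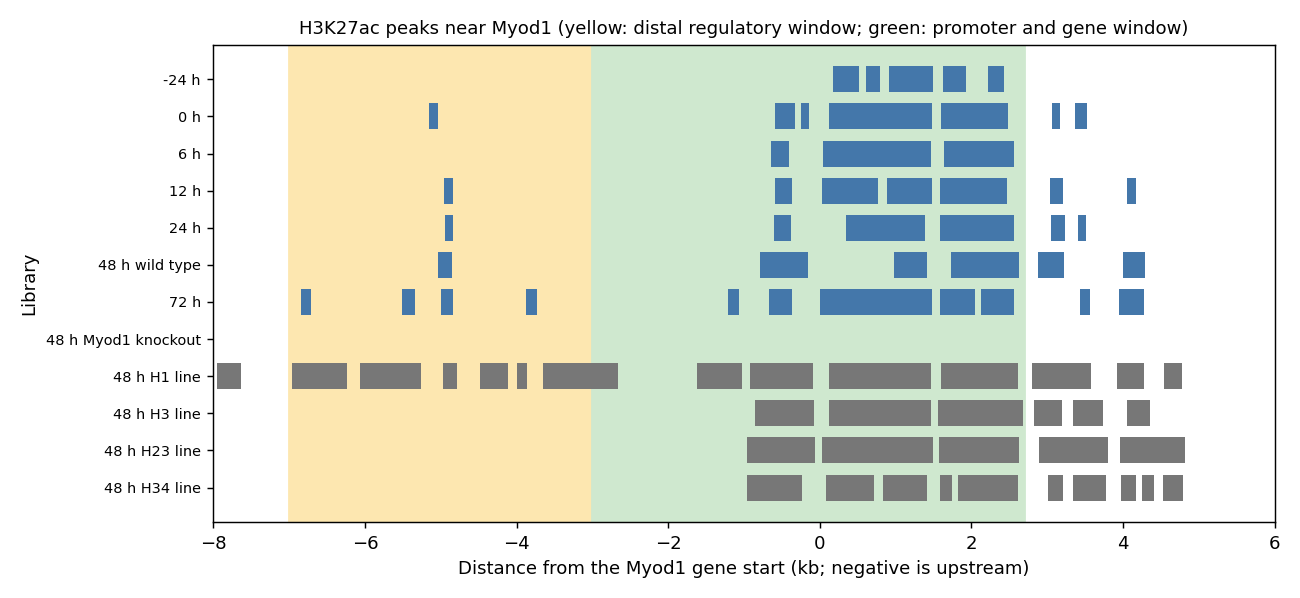
H3K27ac peaks of the 12 libraries (rows) from 8 kb upstream to 6 kb downstream of the Myod1 gene start, in kb, drawn to scale; shading marks the distal regulatory window (yellow) and the promoter and gene (green). The -24 h row starts 172 bp after the gene start, and the knockout row is empty. The other rows add a promoter-side peak, which lists of equal length lack at 6 and 12 h.

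The distal regulatory window, which is 4000 bp long, was sparsely covered by peaks in most libraries. It held 1 peak each at 0 h (115 bp), 12 h (116 bp), 24 h (100 bp) and in the 48 h wild type (191 bp), and none at -24 and 6 h. At 72 h it held 4 peaks over 611 bp. The peaks nearest to 5 kb upstream were at 5150 to 5036 bp at 0 h, 4954 to 4839 bp at 12 h, 4943 to 4844 bp at 24 h, 5042 to 4852 bp in the 48 h wild type and 5004 to 4834 bp at 72 h. From 12 to 72 h these peaks overlapped one another, and the peak at 0 h reached only the outer edge of the one at 48 h.

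The H1 line differed from the rest in this window, with 6 peaks over 2894 bp, or 72.3% of it. Its list was also the longest. With lists of equal length it had 1 peak of 656 bp there and 72 h had 472 bp, and in a narrower window from 6 to 4 kb upstream it had 1307 bp. The H3, H23 and H34 lines and the Myod1 knockout had no peak there. The window's wild-type peak at 48 h was weak, at the 22.5th percentile of −log10 p in its list, and with the same number of strongest peaks taken from each list the window had a peak in 3 libraries, those at 24 h, 72 h and of the H1 line. The absence in the H3-deleted lines therefore concerns a peak near the lower end of the wild-type list.

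The stretch between the enhancer windows, 17 to 7 kb upstream, was also sparsely covered outside the H1 line and 72 h. It had 0 bp at -24 h, 138 bp at 0 h, 187 bp at 6 h, 813 bp at 12 h, 422 bp at 24 h, 852 bp in the 48 h wild type and 1867 bp at 72 h. The H1 line had 3369 bp, H3 580 bp, H23 450 bp and H34 319 bp, and the Myod1 knockout had 0 bp. With lists of equal length the values were 0 bp at 0, 6, 12 and 24 h and in H23, 385 bp in H3 and 1130 bp in H1, which was then below the 1739 bp of 72 h. The widest wild-type peak in it was the one at 72 h from 11.9 to 10.6 kb upstream, 1369 bp wide.

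The core enhancer window had peaks in every library, and the bases they covered changed little over the wild-type series. The lists differ in length and format, so this does not show that acetylation was constant. Its covered bases were 2459 for -24 h, 2658 for 0 h, 2591 for 6 h, 2471 for 12 h, 2398 for 24 h, 3036 for the 48 h wild type and 2636 for 72 h, out of 8000. Among the hotspot lines H1 had 5790, H3 3549, H23 3034 and H34 2718, and the Myod1 knockout had 1491. The knockout was thus the lowest and the H1 line the highest, and the 10 others lay between 2398 and 3549.

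These peaks sat at the far end of the window. The wild-type peak at 48 h ran from 53607109 to 53609782, 24691 to 22018 bp upstream, and the knockout list had 4 separate peaks within it, of 528, 147, 262 and 554 bp. In a narrower window from 22 to 18 kb upstream, 9 libraries had a peak, over 100 bp (24 h) to 2831 bp (H1), and the Myod1 knockout, -24 h and 6 h had none. That the knockout kept peaks at the core enhancer therefore holds for the wider window, and the place of the enhancer itself in mm9 was not checked.

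**Figure D4:**
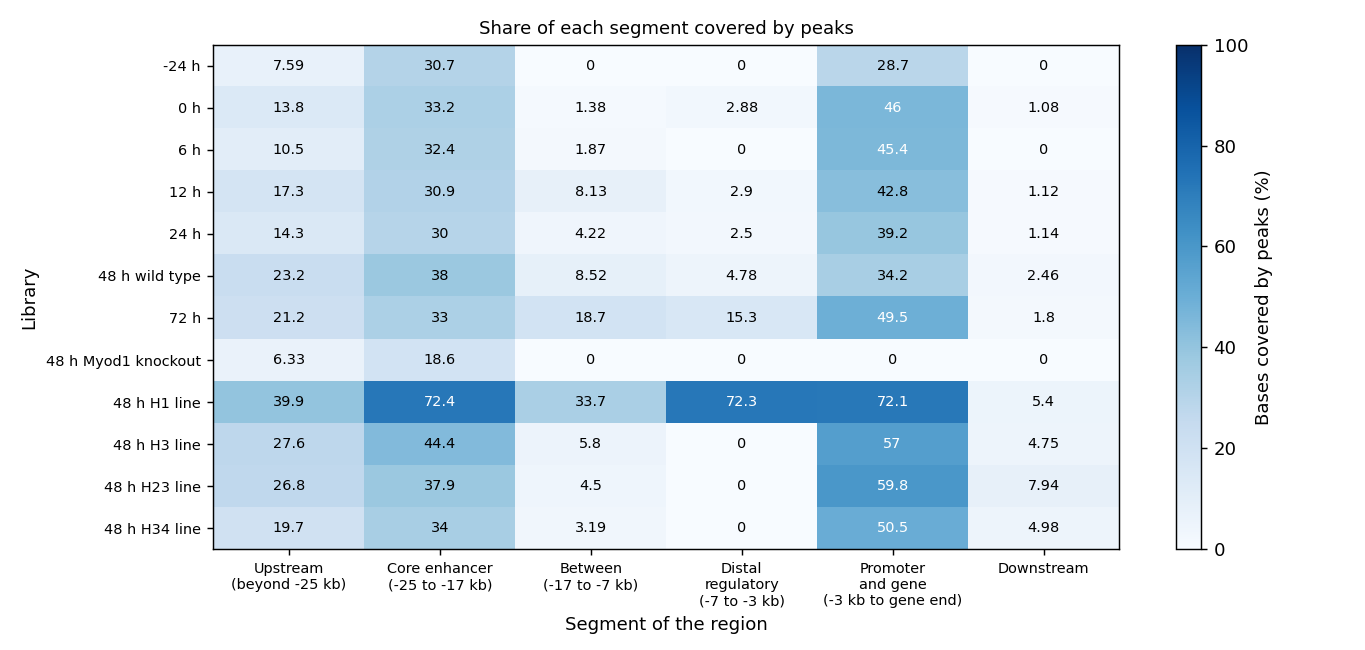
Percentage of each of the 6 segments covered by peaks (columns, ordered along the chromosome) in each of the 12 libraries (rows); darker blue is higher and each cell prints its value. The Myod1 knockout has 18.6% of the core enhancer window covered and 0% of the 4 segments that follow it, whereas the H1 line has 72.4% of the core enhancer window and 72.3% of the distal regulatory window covered.

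Beyond the core enhancer window lay a dense cluster from about 41 to 29 kb upstream, in which 3911 bp were covered at -24 h, 6939 bp at 0 h, 4922 bp at 6 h, 6842 bp at 12 h, 6340 bp at 24 h, 9083 bp in the 48 h wild type and 7034 bp at 72 h. The hotspot lines ranged from 8675 bp (H3) to 10575 bp (H1), and the Myod1 knockout had 2652 bp. This stretch and those from 65 to 55 kb and from 97 to 90 kb upstream were set after the peaks had been seen.

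Farther clusters appeared after -24 h. From 65 to 55 kb upstream there was no peak at -24 h, and 1266 bp were covered at 0 h, 1034 bp at 6 h, 2065 bp at 12 h, 2012 bp at 24 h, 3727 bp in the 48 h wild type and 4609 bp at 72 h. The Myod1 knockout had 4 peaks over 1129 bp there, and the hotspot lines had 1954 bp (H34) to 7312 bp (H1). Peaks were thus called in this cluster in the knockout at 48 h, although none was called in growing wild-type myoblasts, whose list has another format. From 97 to 90 kb upstream there was no peak at -24 and 6 h, and 241 bp at 0 h, 860 bp at 12 h, 401 bp at 24 h, 1833 bp in the 48 h wild type and 1974 bp at 72 h. The knockout had 1 peak of 167 bp there.

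From -24 to 72 h the locus kept its peaks and gained others. All 21 peaks of the -24 h list overlapped a peak at 72 h, whereas over the whole -24 h list 42.7% had no 72 h peak. Where 50% of the shorter peak had to overlap, 4.8% of the 21 had none, against 45.8% over the list. Peaks were not kept between all times, since 5 of the 32 peaks of the 48 h wild type had no 72 h peak (whole list 50.8%), and a peak at 0 h 44.8 to 44.6 kb upstream was in no other list. In reverse, 44 of the 59 peaks at 72 h (74.6%) overlapped none at -24 h, against 37.4% over the whole 72 h list. The 44 comprised 31 in the far upstream segment, 1 in the core enhancer window, 4 between the windows, 4 in the distal regulatory window, 2 in the promoter and gene and 2 downstream. By wild-type cells at 48 h, 2 of the 21 peaks of the -24 h list had no peak (whole list 33.5%), and both lay in the gene.

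The Myod1 knockout was compared with the wild type to see which of these peaks are found without MyoD. Of the 32 wild-type peaks at 48 h, 23 (71.9%) had no knockout peak, against 57.5% of all 71281 wild-type peaks. Both of the 2 peaks between the enhancer windows, the 1 peak of the distal regulatory window, all 3 of the promoter and gene and both downstream ones were without a knockout peak. Of the 22 peaks that reached the far upstream segment 14 were without one, and of the 3 in the core enhancer window 1 was, at 21.6 to 21.3 kb upstream. One kept peak reached into both. With lists of equal length 18 of 26 wild-type peaks (69.2%) had no knockout peak, against 49.8% over the list. With any knockout peak within 1 kb accepted, 56.2% of the 32 had none. For that rule the share over the whole list was not computed.

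The kept and the missing peaks differed in size. The 9 kept wild-type peaks had a median width of 2002 bp and a median percentile of −log10 p of 92.8, and the 23 missing ones had 330 bp and 37.6. Over the whole wild-type list kept peaks were also wider, at 669 bp against 327 bp. Since sharing 1 base counted as kept, the rule itself favours wider peaks, and its share in this difference was not tested. The 3 wild-type peaks of the promoter and gene had a −log10 p of 18.2, 9.86 and 21.7. Of all wild-type peaks with a −log10 p in that range, 59.6% had no knockout peak, so a missing peak of that strength was common in the knockout list.

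The missing wild-type peaks at the gene were part of a longer run. From 21.6 kb upstream to 226.4 kb after the gene start, 11 wild-type peaks in a row had no knockout peak, and 8.82% of all wild-type peaks lay in runs at least that long. The knockout list had no peak between 53609345 and 53894957, a stretch of 285.6 kb. In the part of this stretch from 20 kb upstream to the end of the region the other libraries had 4 (6 h) to 28 (H1) peaks. In the part beyond the region they had 0 (24 h) to 22 (H1), and wild-type cells at 48 h had 2. The 7 wild-type lists thus had at most 3 peaks in the part of this stretch beyond the region. A peak list does not show whether the edit removed DNA at Myod1, so lost acetylation and lost sequence at the gene cannot be told apart.

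By segment, the knockout covered 49.1% of the wild-type bases in the core enhancer window and 27.3% in the far upstream segment. In the cluster from 41 to 29 kb upstream the value was 29.2%, and from 65 to 55 kb upstream 30.3%. Over the whole region it was 25.9%, and over the whole lists 40.3%. Coverage in the wide core enhancer window was thus reduced less than in the whole list, and in the far upstream segment more. In the narrower window from 22 to 18 kb upstream the knockout had 0 bp and the 48 h wild type 305 bp.

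Of the 20 knockout peaks, 19 overlapped a wild-type peak at 48 h, and 1 (5.0%) did not, against 25.5% over the knockout list. The exception lay 94.3 to 94.1 kb upstream. Against the -24 h list, 6 of the 20 (30.0%) had no peak, against 35.9% over the knockout list. Of these none was in the core enhancer window, and all 6 were farther upstream. In the other direction 9 of the 21 peaks at -24 h (42.9%) had no knockout peak, against 54.1% over the -24 h list. The 9 included all 5 of the gene, 4 upstream ones and none of the core enhancer window. Both shares were below those over the lists. The Jaccard index of covered bases (shared over combined bases) of the knockout at this locus was highest with -24 h, at 0.318, and nearly level with 24 h, at 0.313. It was 0.297 with 6 h, 0.288 with 0 h, 0.269 with 12 h, 0.238 with the 48 h wild type and 0.214 with 72 h. Over the whole lists 24 h gave the highest value, at 0.333, against 0.321 for -24 h, 0.279 for the 48 h wild type and 0.318 for 72 h. This index is limited by unequal coverage. At the locus the knockout covered 6351 bp, -24 h 9928 bp and the 48 h wild type 24479 bp. The order of the indices therefore does not show which library the knockout resembled most. Among the differences from -24 h, the knockout lacked peaks at the gene and a counterpart of 4 upstream peaks. It had peaks from 65 to 55 kb and from 94.3 to 94.1 kb upstream, where the -24 h list had none.

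Sequence covered in all 12 libraries came to 3501 bp in 14 stretches, all more than 20 kb upstream of the gene. The longest were 53597263 to 53597806 (34537 to 33994 bp upstream, 544 bp), 53607344 to 53607871 (24.5 to 23.9 kb, 528 bp), 53606113 to 53606537 (25.7 to 25.3 kb, 425 bp), 53596381 to 53596800 (35.4 to 35.0 kb, 420 bp) and 53608809 to 53609202 (22991 to 22598 bp, 394 bp). Without the knockout, 6757 bp in 19 stretches were covered in the 11 others. Of the 62 merged regions 3 had a peak in all 12 libraries (4.84%), against 7.69% over the genome. They lay at 53591887 to 53600316, 53603839 to 53606927 and 53607001 to 53610669, and a share near the background is no sign of a locus richer in constant regions than others.

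The ranks of peaks within their lists followed the same division. The strongest peak of the core enhancer window stood at the 93.7th (-24 h) to 99.3rd (72 h) percentile of its list in 11 libraries and at the 75.5th in the Myod1 knockout. For the cluster from 41 to 29 kb upstream the ranks were 92.3 (6 h) to 98.3 (48 h wild type), and 80.0 in the knockout. The strongest peak of the promoter and gene was lower in each library than that of the core enhancer window, with 73.2 for -24 h, 72.1 for 0 h, 73.3 for 6 h, 88.3 for 12 h, 91.0 for 24 h, 74.5 for the 48 h wild type and 94.4 for 72 h. The lists differ in length and format, so these percentiles describe each list and are no measure of change between them.

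**Figure D5:**
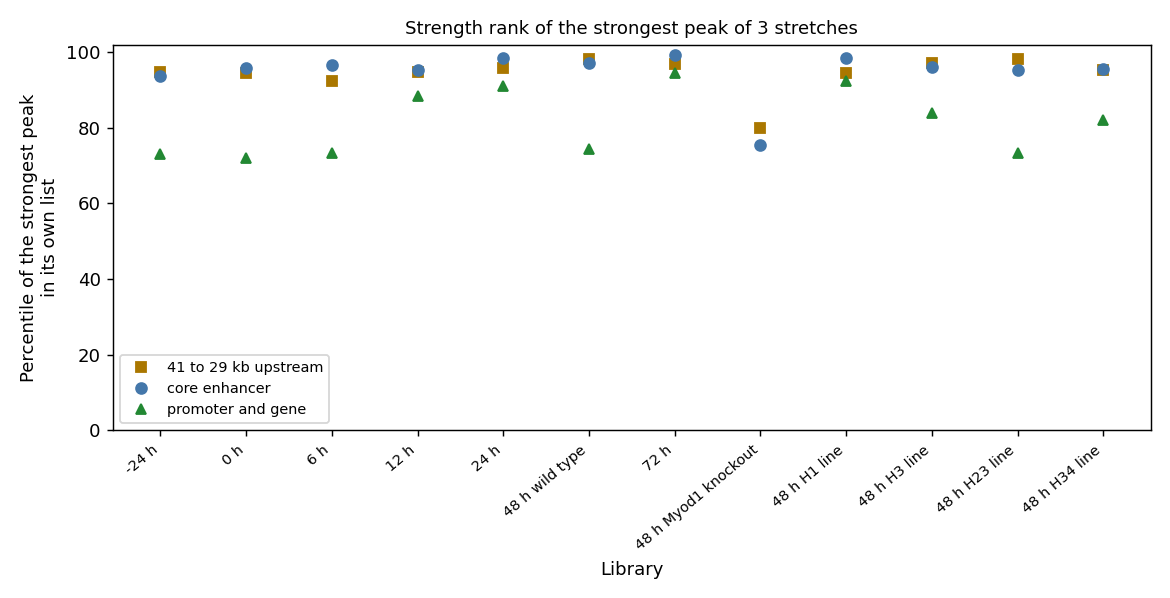
Percentile of the strongest peak of 3 stretches within its own list (vertical axis, 0 to 100) for each of the 12 libraries (horizontal axis); squares are the cluster 41 to 29 kb upstream, circles the core enhancer window and triangles the promoter and gene. The knockout has its square at 80.0, its circle at 75.5 and no triangle, and in the other 11 libraries squares and circles lie above 92.

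Joined into large domains, as is done for super-enhancers, the gene and its enhancers fell into 1 domain in 10 of the 12 libraries. Peaks were joined at the default distance of the ROSE program (between 12 and 13 kb), and a domain was ranked by the sum of width times fold or score over its peaks. A domain was called large where its rank lay beyond the point at which the curve of ranked, scaled sums reaches a slope of 1. At -24 h the enhancer cluster made a large domain of 17.4 kb (rank 466 of 17973 domains), and the gene stood apart in a domain of 2.3 kb that ranked 6800. From 0 h on both were in 1 large domain, of rank 322 for 0 h, 509 for 6 h, 497 for 12 h, 179 for 24 h, 84 for the 48 h wild type and 104 for 72 h. The hotspot lines had it at rank 120 (H1), 215 (H3), 403 (H23) and 549 (H34), among 932 to 1152 large domains. In the Myod1 knockout no domain reached the gene, and the enhancer domain of 16.5 kb ranked 730, below its 683 large domains.

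The link between enhancers and gene depended on the joining distance, and at 0 and 6 h on weak peaks. The strongest peak between the enhancer windows stood at the 14.4th percentile of its list at 0 h and the 5.73rd at 6 h. In lists of equal length that stretch had 0 bp at 0, 6, 12 and 24 h and in H23. Domains were not joined again on those lists, so the link was not tested there. With peaks joined within 5 kb, a large domain reached the gene in 2 libraries, at 72 h and in the H1 line, the lists with the most covered bases between 17 and 3 kb upstream. At that distance the enhancer domain at -24 h was no longer large, at rank 927 with 880 large domains. With domains ranked by covered bases alone, the knockout's enhancer domain was large, at rank 522 with 867 large domains.

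The hotspot lines were compared with the wild type for peaks at Myod1 in cells without those regions. Among 32 wild-type peaks, 3 were without one in the H1 line (9.38%, whole list 16.2%), 5 in H3 (15.6%, whole list 26.0%), 6 in H23 (18.8%, whole list 18.2%) and 9 in H34 (28.1%, whole list 18.0%). The gene and promoter peaks were present in all 4. In H1 the missing peaks were 2 far upstream and 1 between the enhancer windows. In H3, H23 and H34 the 2 peaks between the windows and the 1 of the distal regulatory window had no counterpart. These 3 peaks were weak, at percentiles 24.1, 30.5 and 22.5 of the wild-type list. The 2 between the windows also had no counterpart at -24, 0, 6 and 12 h. The distal one overlapped a peak at 0, 12, 24 and 72 h. The others missing in these 3 lines lay in the core enhancer window (1 in H23 and 1 in H34) or farther upstream (2 in H3, 2 in H23 and 5 in H34). H34 was the line with the largest share missing by this rule. With lists of equal length H1 missed 11.5%, H3 23.1%, H23 34.6% and H34 50%, against 28.3%, 31.1%, 25.1% and 27.8% over the lists. With any peak within 1 kb accepted, H3, H23 and H34 were level at 9.4% and H1 had 0.0%, against 17.4%, 11.7%, 10.7% and 8.37% over the lists.

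The similarity of the covered bases at Myod1, as the Jaccard index, was 0.632 between the 48 h wild type and H3, 0.631 for H23, 0.602 for H34 and 0.461 for H1. Over the whole lists the same indices were 0.449, 0.403, 0.431 and 0.441. H1 had the lowest of these 4 values at the locus, where its peaks covered 48171 bp against 24479 bp in the wild type. The index between the 48 h wild type and the Myod1 knockout was 0.238 here and 0.279 over the lists. That between wild-type cells at 48 and 72 h was 0.464 here and 0.312 over the lists, whose formats differ.

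Downstream of the gene the marks were few. The 48 h wild type had 2 peaks over 627 bp, and 72 h had 2 over 459 bp. The list at -24 h, that at 6 h and the knockout had none. The H3 and H23 lines each had a peak about 14 kb after the gene start, at 53645907 to 53646050 and 53645842 to 53646094, where no other list had one. In the gene order of the GRCm38.p6 annotation the next gene after Myod1 is Kcnc1, which encodes a voltage-gated potassium channel, and the preceding ones are the long noncoding RNA gene Gm45923 and the protein-coding gene Otog. No peak was assigned to these neighbours, since their positions in mm9 were not used here.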

How the data were processed

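Chromatin immunoprecipitation and sequencing of H3K27ac was measured in 13 labelled samples, and the lists of 12 were used. The peak caller was MACS2 2.1.0 and the mouse build mm9, as the submitters' processing notes list them (per the labels). For the aligner, the filters, any control library and the thresholds, no details were given in the sources used here. Read depth was unknown. The authors' lists of -24, 0, 6, 12, 24 and 72 h have 5 columns, with a deposited score of unstated unit. Those at 48 h have 10, with a deposited score, the authors' fold enrichment (a ratio), −log10 p, −log10 q and the summit. Format and time cannot be told apart for wild-type cells at 48 h.

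Peaks overlapping the region were counted, and peaks sharing 1 base counted as shared. The members, windows and lists were chosen with earlier results of these data known. Described peaks were those over the gene start, the strongest of each segment, regions shared by all 12 libraries and wild-type peaks without a knockout peak; other peaks and the 3 upstream stretches were chosen after their values were seen. No genome of mm9 was used, so no sequence is printed. The overlap code was tested on 20000 simulated peaks, all of which were called correctly. Tables were made in Python 3.11.15 with pandas 2.3.3 on numpy 2.4.6, and figures in matplotlib 3.10.9. Alternatives were stricter lists (q under 0.001, or a score of at least 5), equal numbers of strongest peaks, a −log10 p of at least 5 at 48 h, other overlap rules, windows and joining distances.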

Additional observations from a re-analysis of the deposited data

How the results depend on the processing

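For 27 results on the region, its segments and its domains, 106 alternatives were run, of which 96 stayed within 1.5 times the value reported and 10 moved. For the covered bases of the 6 segments in each library (72 values), 324 were run, of which 285 stayed within that range and 39 moved, all in the sparsely covered segments and in the narrower core enhancer window. The knockout had no peak in the promoter and gene under stricter lists, equal lists, narrower windows and a gene start moved by 500 bases. With peaks within 1 kb counted as shared, the percentage of wild-type peaks without a counterpart was 0.0 in H1 and 9.4 in each of H3, H23 and H34 (8.37, 17.4, 11.7 and 10.7 over the lists, in that order). With equal numbers of strongest peaks it was 34.6 in H23 and 50 in H34 (25.1 and 27.8 over the lists), and peaks were found in 5 libraries between the enhancer windows and in 3 in the distal regulatory window. With an overlap of 50% of the shorter peak, 4.8% of the -24 h peaks had no 72 h peak (45.8% over the list). Joining within 5 kb left 2 libraries with a large domain over the gene. Why these 10 moved was not examined further (the cause was not tested). What read depth did to weak peaks was not tested either. No paired analysis was possible because each condition had 1 library.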
